A study of Mus musculus with 9 samples.

Results

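The genes described here encode 8 integrin subunits (*Itga4*, *Itga5*, *Itgal*, *Itgav*, *Itgb1*, *Itgb2*, *Itgb3* and *Itgb7*) and the cell-surface ligands ICAM-1 (*Icam1*) and VCAM-1 (*Vcam1*). They were chosen by gene symbol and are 10 of the 55471 genes in the deposited counts. All 10 passed the filter on low counts and were among the 16260 genes tested. RNA was sequenced from bone marrow-derived DCs of wild-type C57BL/6 mice, grown with GM-CSF and then harvested after 6 h with or without a stimulus. The 3 groups were unstimulated DCs, DCs activated with LPS at 100 ng/mL, and DCs treated with IFN-β at 1000 U/mL, with 3 libraries per group that carry the letters A, B and C. LPS comes from the bacterial outer membrane and is sensed by a Toll-like receptor. IFN-β, a type I interferon, signals antiviral defence. Per the methods the mice were female and 8 to 20 weeks old, and nothing in the sources says whether the libraries of a group came from separate cultures or animals. The p-values therefore measure the spread between these libraries, which may be technical.

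Integrins are receptors made of an α and a β subunit that tie a cell to its surroundings. On leukocytes, αL with β2 forms LFA-1, which binds ICAM-1 on other cells and holds the contact between a DC and a T cell. The α4 subunit pairs with β1 to form VLA-4, a receptor for VCAM-1 and fibronectin, or with β7 to form the gut-homing integrin that binds MAdCAM-1. The α5 and αv subunits bind matrix proteins such as fibronectin and vitronectin through a short peptide motif, α5 with β1 and αv with β1, β3, β5, β8 and others. An integrin reaches the surface only as a pair, so the mRNA of a subunit does not give the amount of the receptor.

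Each library held 33425803 to 43735199 counts on genes. Values are given as CPM, the counts relative to a library size scaled by edgeR's TMM factors, which correct for composition and ran from 0.783 in LPS-activated to 1.26 in unstimulated DCs. Changes are log2 fold changes from edgeR's quasi-likelihood test across all 9 libraries, with Benjamini-Hochberg adjustment over all tested genes and a threshold of 0.05. Of 10 stimulation markers, all 10 were higher under LPS and 9 under IFN-β. The exception was *Il12b*, which encodes a subunit of IL-12, with a log2 fold change of 0.33 under IFN-β (adjusted p = 0.134, and 0.0399 with the library letters as a replicate block). All 7 DC markers listed were tested, with summed levels of 4567 to 5397 CPM in unstimulated, 6294 to 6894 in LPS-activated and 5146 to 5446 in IFN-β-treated DCs. The 7 macrophage and monocyte markers were also all tested and summed to 12223 to 15604, 10011 to 12810 and 12259 to 14310 CPM in the same order. Genes of both lists were thus expressed in these cultures. In such bulk samples, fewer cells of a type and less RNA per cell cannot be told apart. Listed markers of T, B, NK and erythroid cells summed to at most 0.495 CPM in any library.

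Under LPS, 8 of the 10 genes changed, 7 higher and 1 lower. Of all tested genes, 68.2% passed the threshold, 32.8% higher and 35.4% lower. The median log2 fold change of the 10 genes was 1.52, against -0.04 over all tested genes. IFN-β raised 6 of the 10 genes, where 46.9% of all tested genes passed, 23.6% higher and 23.3% lower. The number lower was 0 by edgeR, also at an unadjusted p-value under 0.05 and with DESeq2. The median over the 10 genes was 0.43 under IFN-β, against -0.02 over all tested genes. The responses to both stimuli differed for 8 of the 10 genes, 7 of them lower under IFN-β than under LPS and 1 higher, where 49.1% of all tested genes passed, 25.8% higher and 23.3% lower under IFN-β. Both stimuli were compared with the same unstimulated libraries. The LPS and unstimulated libraries did not overlap for 8 of the 10 genes, 7 higher and 1 lower, against 72.4% of all tested genes, 34.6% higher and 37.7% lower. For IFN-β and unstimulated libraries this held for 6 genes, all higher, against 58.1% (28.5% higher, 29.6% lower). For IFN-β and LPS libraries it held for 9 genes, 2 of them higher under IFN-β, against 56.8% (29.6% higher, 27.3% lower). With scaling by library size only, 10 genes changed under LPS (7 higher, 3 lower), 8 under IFN-β (5 higher, 3 lower) and 10 between the stimuli (3 higher, 7 lower under IFN-β). That scaling moved the fold change of all genes by a median of -0.58 under LPS, -0.31 under IFN-β and 0.27 between the stimuli.

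**Figure D1:**
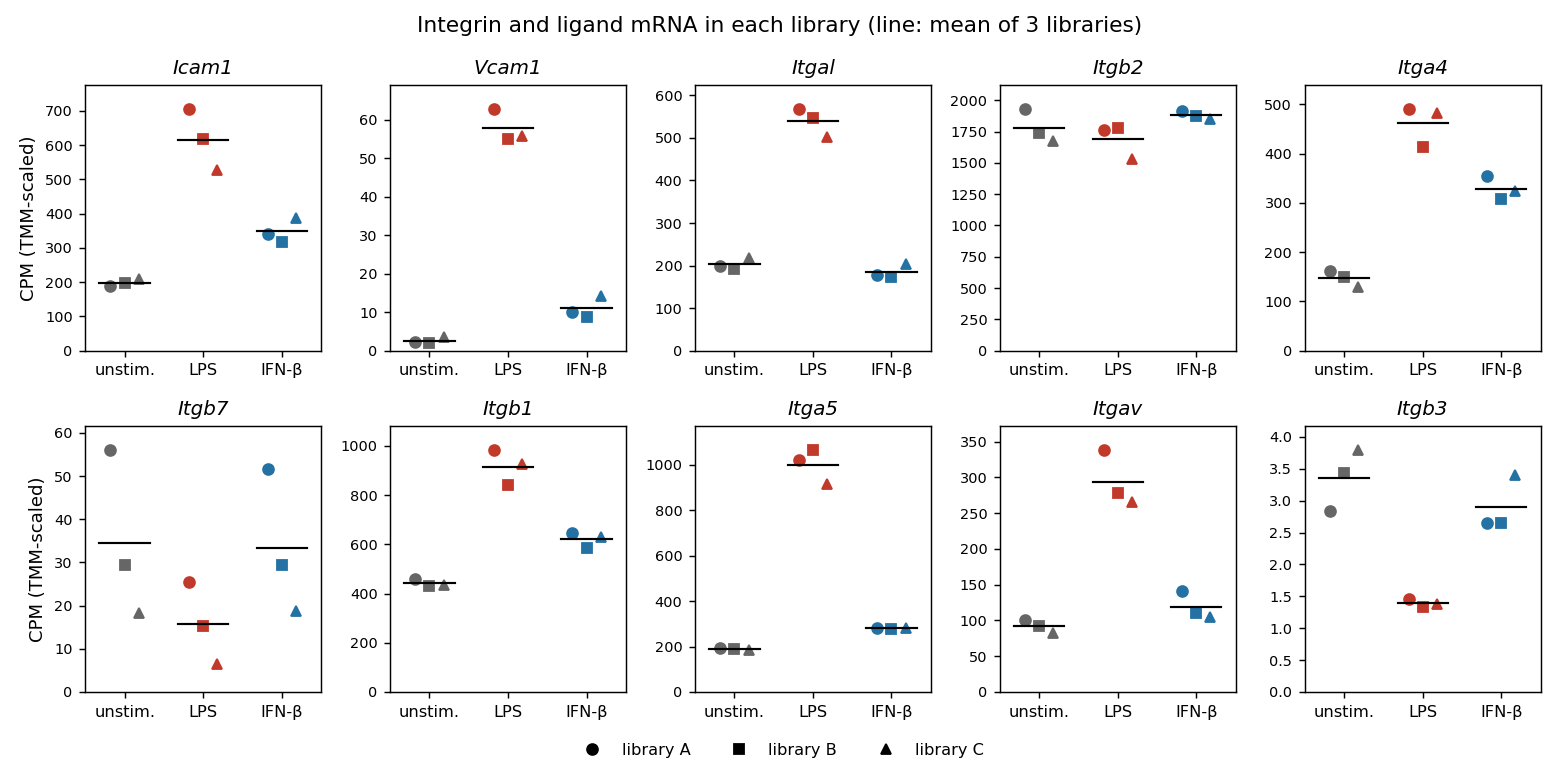
TMM-scaled CPM (linear axes from 0, a different scale in each panel) of the 10 genes in unstimulated, LPS-activated and IFN-β-treated DCs, with a symbol per library letter and a line at the mean of 3 libraries. The LPS libraries stand apart from the unstimulated libraries in every panel but those of *Itgb2* and *Itgb7*, above them in 7 and below them for *Itgb3*.

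Both ligand genes rose under either stimulus, and more under LPS. *Icam1* (ENSMUSG00000037405, chr9:21015985-21028817 of GRCm38, plus strand) encodes the ligand of LFA-1 and Mac-1. It stood at 189, 197 and 211 CPM in unstimulated libraries A, B and C, at 705, 617 and 527 CPM under LPS, and at 340, 318 and 386 CPM under IFN-β. No library of any group overlapped with another group. *Icam1* rose by 1.63 under LPS (SE 0.11, 3.10-fold, adjusted p = 4.1e-07 by edgeR) and by 0.81 under IFN-β (SE 0.11, 1.75-fold, adjusted p = 2.2e-04) on the log2 scale. The direct difference between IFN-β and LPS was -0.82 (SE 0.11, adjusted p = 1.4e-04). Its exons overlap those of *Gm47079* on the opposite strand by 511 bases, and that gene had 4 to 14 counts per library.

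The promoter of *Icam1* is shown because it was the only window, of the 6 members with a RefSeq promoter entry, that held any of the motifs searched. It covers chr9:21015690-21015989 (GRCm38.p6, plus strand), 250 bases before to 50 after the RefSeq start, and is printed 5′ to 3′ with the matches in capitals. Positions of the matches are counted from that RefSeq start. The GENCODE start of the gene, at 21015985, lies downstream of it near the end of the window, so the matches are farther from that start.
Icam1: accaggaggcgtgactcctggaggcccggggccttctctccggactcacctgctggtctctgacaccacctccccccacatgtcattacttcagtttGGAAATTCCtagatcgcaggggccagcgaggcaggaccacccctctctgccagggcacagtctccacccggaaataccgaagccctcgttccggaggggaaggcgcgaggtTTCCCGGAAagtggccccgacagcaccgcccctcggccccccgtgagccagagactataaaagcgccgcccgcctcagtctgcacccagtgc
The first match, GGAAATTCC, lies 153 to 145 bases before the start and fits the letters GGANNTTCC, a form of the κB site, the sequence to which NF-κB binds. The second, TTCCCGGAA, lies 42 to 34 bases before the start and fits TTCNNNGAA, the letters of a STAT site. Both matched sequences fit their motif on either strand, and the matches overlap no other. Of 32851 mouse promoter windows of the same length, 4.26% held GGANNTTCC and 8.3% held TTCNNNGAA. The NF-kB consensus, TGANTCA (AP-1, 7.81% of windows) and the interferon-stimulated response element (3.44%), searched on both strands, had no match there. The NF-kB consensus was in 4.51% of windows. The windows of *Itga4*, *Itga5*, *Itgav*, *Itgb1* and *Itgb7* held none of the 5 motifs. *Vcam1*, *Itgal*, *Itgb2* and *Itgb3* had no RefSeq promoter entry, so no window of theirs was searched. The window of *Itga5*, the integrin gene with the largest rise under LPS among the 8 subunits, is printed for comparison (chr15:103366742-103367041, minus strand).
Itga5: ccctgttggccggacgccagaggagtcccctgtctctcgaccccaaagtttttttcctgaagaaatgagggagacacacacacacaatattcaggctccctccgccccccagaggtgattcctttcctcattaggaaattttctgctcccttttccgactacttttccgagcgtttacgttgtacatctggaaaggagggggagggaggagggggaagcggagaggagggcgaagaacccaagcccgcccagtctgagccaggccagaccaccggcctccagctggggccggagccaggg
These letters are a description of the windows and were not tested for binding.

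*Vcam1* (ENSMUSG00000027962, chr3:116109949-116129688, minus strand), the ligand of α4β1, had the largest change of the 10 genes under both stimuli. Its levels were 2.15, 1.89 and 3.50 CPM in unstimulated DCs. They were 62.7, 54.9 and 55.8 CPM under LPS and 9.95, 8.87 and 14.3 CPM under IFN-β. The 3 groups did not overlap, and the LPS libraries were the highest. *Vcam1* rose by 4.52 under LPS (SE 0.24, 22.9-fold, adjusted p = 5.1e-08) and by 2.13 under IFN-β (SE 0.23, 4.38-fold, adjusted p = 4.1e-05) on the log2 scale by edgeR. Between IFN-β and LPS the difference was -2.39 (SE 0.21, adjusted p = 5.4e-06). Of all tested genes, 1.61% had a larger absolute change under LPS and 2.66% under IFN-β.

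VCAM-1 is best known from endothelium and bone marrow stroma, so markers of both were read in the same libraries. Of 5 endothelial markers, 2 were tested, and the list summed to 10.1 to 12.6 CPM in unstimulated, 123 to 128 in LPS-activated and 126 to 155 in IFN-β-treated DCs. Most of that sum was *Kdr*, a VEGF receptor. *Tek* and *Emcn* had at most 3 counts in any library, *Tie1* was under the filter, and *Cdh5*, the endothelial cadherin, had means of 1.21, 3.10 and 3.04 CPM. The 6 stromal markers, of which 5 were tested, summed to 5.79 to 11.5, 23.6 to 39.2 and 4.61 to 7.98 CPM. *Pdgfrb*, a PDGF receptor, made up most of the LPS sum, with 31.6, 22.1 and 16.7 CPM in libraries A, B and C against 0.431 to 0.925 CPM in unstimulated DCs. The part of these cell types in the *Vcam1* values was not tested.

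**Figure D2:**
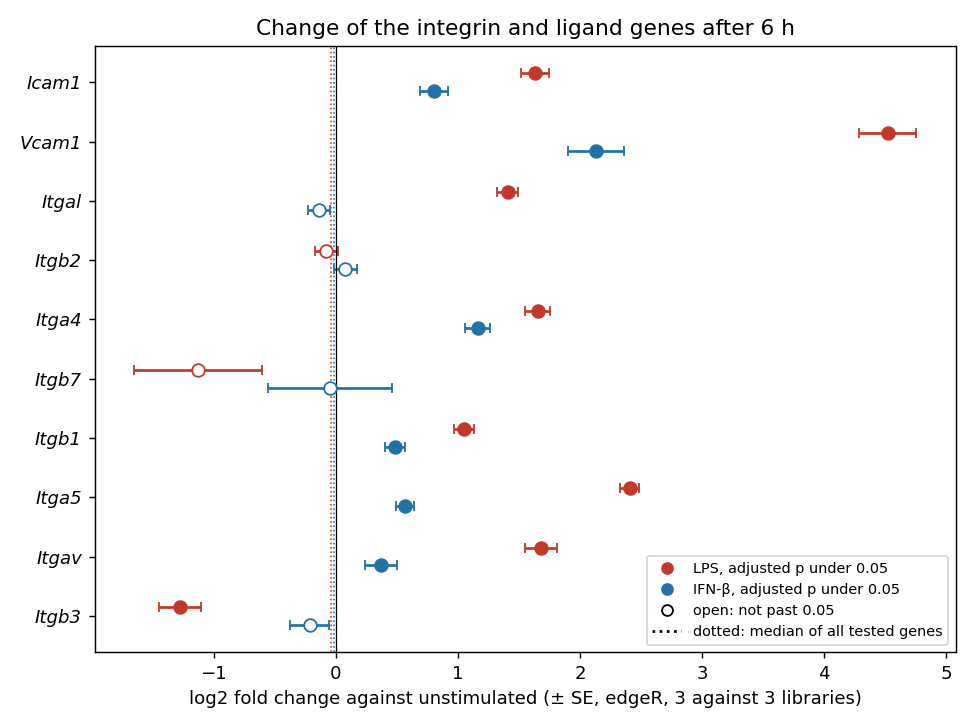
Log2 fold change against unstimulated DCs (x axis, ± SE, edgeR, 3 against 3 libraries) of each gene under LPS (red) and IFN-β (blue), with filled points past an adjusted p-value of 0.05 and dotted lines at the median of all tested genes. *Vcam1* lies farthest right for both stimuli, at 4.52 and 2.13, and *Itgb3* under LPS is the filled point below 0, at -1.27.

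The LFA-1 subunits behaved unlike each other. *Itgal* (ENSMUSG00000030830, chr7:127296260-127335138, plus strand) encodes αL, which pairs with β2 alone. It was at 199, 193 and 218 CPM in unstimulated DCs, 568, 547 and 501 CPM under LPS, and 177, 173 and 205 CPM under IFN-β. All LPS libraries lay above all others, whereas IFN-β and unstimulated libraries overlapped. *Itgal* rose by 1.41 on the log2 scale under LPS (SE 0.09, 2.65-fold, adjusted p = 1.8e-07 by edgeR). Under IFN-β the log2 fold change was -0.14 (SE 0.09, adjusted p = 0.229), and with scaling by library size only it was -0.44 (adjusted p = 9.6e-04; range over 16 alternatives 9.6e-04 to 0.532). The responses differed by -1.54 (SE 0.09, adjusted p = 3.1e-07). LFA-1 is also a lymphocyte integrin, and the 5 T cell, 4 B cell and 3 NK cell markers summed to at most 0.405, 0.495 and 0.279 CPM per library.

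*Itgb2* (ENSMUSG00000000290, chr10:77530252-77565708, plus strand) encodes β2, the partner of αL, αM, αX and αD. Its levels were 1929, 1737 and 1674 CPM in unstimulated DCs, 1762, 1775 and 1531 CPM under LPS, and 1918, 1877 and 1848 CPM under IFN-β. Both stimulated groups overlapped with the unstimulated libraries. The log2 fold change was -0.08 under LPS (SE 0.09, adjusted p = 0.491 by edgeR) and 0.08 under IFN-β (SE 0.09, adjusted p = 0.515). IFN-β libraries all lay above the LPS libraries, with a difference of 0.16 that did not pass (SE 0.09, adjusted p = 0.194). These calls rest on the scaling. With library size only, *Itgb2* was called lower under LPS (-0.66, adjusted p = 1.2e-05) and under IFN-β (-0.22, adjusted p = 0.0275), and higher under IFN-β than under LPS (0.43, adjusted p = 6.9e-04). The highest adjusted p-values over the 16 alternatives were 0.94, 0.977 and 0.518 for the same comparisons, and those with library size only were the lowest.

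Of the VLA-4 genes, *Itga4* (ENSMUSG00000027009, chr2:79255426-79333123, plus strand), which encodes α4, rose under both stimuli. The unstimulated libraries had 161, 149.7 and 129.955 CPM, the LPS libraries 491, 414 and 483 CPM, and the IFN-β libraries 355, 308 and 324 CPM. No group overlapped with another. The rise was 1.66 under LPS (SE 0.10, 3.15-fold, adjusted p = 1.6e-07 by edgeR) and 1.16 under IFN-β (SE 0.10, 2.24-fold, adjusted p = 1.0e-05) on the log2 scale. The difference between IFN-β and LPS was -0.49 (SE 0.10, adjusted p = 0.00203), the smallest of the 8 differences that passed. The exons of *Itga4* share 1124 bases with *Cerkl* on the opposite strand. *Cerkl* had 46 to 134 counts per library, against 5760 to 15728 for *Itga4*, and the strand setting of the counting is not given in the sources used here.

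*Itgb1* (ENSMUSG00000025809, chr8:128685654-128733200, plus strand) encodes β1, the shared partner of α4, α5 and αv. Its levels were 458, 432 and 435 CPM without stimulation, 982, 839 and 927 CPM under LPS, and 644, 585 and 629 CPM under IFN-β, with no overlap between groups. *Itgb1* rose by 1.05 under LPS (SE 0.08, 2.07-fold, adjusted p = 8.5e-07 by edgeR) and by 0.49 under IFN-β (SE 0.08, 1.40-fold, adjusted p = 6.5e-04) on the log2 scale. The responses differed by -0.56 (SE 0.08, adjusted p = 2.0e-04).

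*Itgb7* (ENSMUSG00000001281, chr15:102215995-102231944, minus strand), which encodes β7, the gut-homing partner of α4 and of αE, was the gene whose libraries differed most within a group. Libraries A, B and C had 56.0, 29.3 and 18.3 CPM without stimulation, 25.6, 15.3 and 6.54 CPM under LPS, and 51.7, 29.5 and 18.8 CPM under IFN-β. Library A was the highest and library C the lowest in each group, with a ratio of 3.07, 3.91 and 2.74, and the groups overlapped. The next largest ratio of any member was 1.85, for *Vcam1* in unstimulated DCs. Without regard to the letters, the log2 fold change under LPS was -1.13 (SE 0.52, adjusted p = 0.0772 by edgeR). Each LPS library was nevertheless below the unstimulated library of its own letter, by differences of -1.11 (A), -0.91 (B) and -1.41 (C) in log2(CPM + 0.5). With the letters as a replicate block, *Itgb7* was lower under LPS by a log2 fold change of -1.15 (SE 0.09, adjusted p = 6.2e-08) and higher under IFN-β than under LPS by 1.12 (SE 0.09, adjusted p = 1.9e-07). Without the block that last difference was 1.08 (SE 0.52, adjusted p = 0.111). Under IFN-β the log2 fold change was -0.05 without the block (SE 0.51, adjusted p = 0.952) and -0.03 with it (SE 0.09, adjusted p = 0.822). The block thus brought the members called under LPS to 9 of 10, where 73.5% of all tested genes passed, and those that differed between the stimuli to 9 of 10, where 58.0% passed. Without the block the size of the LPS value turned on single libraries. It was -1.44 without unstimulated library C (adjusted p = 0.0293) and -1.65 without LPS library A (adjusted p = 0.0258), but -0.60 without unstimulated library A (adjusted p = 0.32) and -0.76 without LPS library C (adjusted p = 0.218). It also passed with no filter on low counts (-1.16, adjusted p = 1.8e-04) and with scaling by library size only (-1.71, adjusted p = 0.0078). The difference between the stimuli passed without LPS library A (1.60, adjusted p = 0.0422), with no filter (1.11, adjusted p = 5.2e-04) and with library size only (1.37, adjusted p = 0.0334). It was 0.71 without LPS library C (adjusted p = 0.292) and 0.61 without IFN-β library A (adjusted p = 0.382). Over all 16 alternatives the adjusted p-value ran from 6.2e-08 to 0.32 under LPS and from 1.9e-07 to 0.382 between the stimuli.

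Some markers, of other cells and of DCs, followed the same letters, and some did not. *S100a9*, a calprotectin subunit abundant in neutrophils, had 6.06, 2.09 and 1.02 CPM in unstimulated libraries A, B and C, 5.77, 1.46 and 0.768 CPM under LPS, and 5.08, 1.81 and 0.829 CPM under IFN-β. The 8 neutrophil markers, of which 4 were tested, summed to 9.50 to 21.0 CPM in unstimulated, 12.5 to 23.4 in LPS-activated and 9.002 to 17.3 in IFN-β-treated DCs. *Elane* and *Retnlg* had at most 3 counts in any library. Library A had the highest sum in each group, but library B, not C, the lowest. *S100a8*, more abundant than *S100a9*, had 6.85 to 13.2, 9.70 to 15.2 and 6.48 to 10.0 CPM in the same order of groups. Its lowest value was in library B of each group. *Flt3* of the DC list had 2.23 to 4.51, 2.33 to 4.99 and 1.88 to 3.96 CPM, highest in library A and lowest in library C of each group. Mast cells also carry β7. Of their 5 markers only *Kit* was tested, *Cpa3*, *Ms4a2* and *Fcer1a* had at most 3 counts in any library, and the sums of 6.28 to 9.95, 3.26 to 8.08 and 2.20 to 4.45 CPM were lowest in library A of each group. The part of these cells in the *Itgb7* values was not tested.

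Among the receptors for matrix proteins, *Itga5* (ENSMUSG00000000555, chr15:103344286-103366763, minus strand), which encodes the α subunit of the fibronectin receptor, had the largest rise of the 8 subunits under LPS. Its levels were 194, 188 and 184 CPM without stimulation, 1020.2, 1064 and 917 CPM under LPS, and 283, 277 and 279.8 CPM under IFN-β. The groups did not overlap, and the IFN-β libraries lay within 1.02-fold of each other. *Itga5* rose by 2.41 under LPS (SE 0.08, 5.30-fold, adjusted p = 3.4e-09 by edgeR) and by 0.57 under IFN-β (SE 0.07, 1.48-fold, adjusted p = 1.3e-04) on the log2 scale. The responses differed by -1.84 (SE 0.08, adjusted p = 3.9e-08).

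*Itgav* (ENSMUSG00000027087, chr2:83724397-83806916, plus strand) encodes αv, the subunit with the most β partners. It was at 101, 91.8 and 82.8 CPM in unstimulated DCs, 338, 279 and 266 CPM under LPS, and 141, 111 and 104 CPM under IFN-β. The LPS libraries stood well above the rest, while the lowest IFN-β library lay just above the highest unstimulated library. *Itgav* rose by 1.68 under LPS (SE 0.13, 3.20-fold, adjusted p = 9.4e-07 by edgeR) and by 0.37 under IFN-β (SE 0.13, 1.29-fold, adjusted p = 0.0363) on the log2 scale. The IFN-β call was lost with scaling by library size only (0.07, adjusted p = 0.622) and with upper-quartile factors (0.29, adjusted p = 0.0564). It was also lost without unstimulated library B (0.37, adjusted p = 0.0891), unstimulated library C (0.30, adjusted p = 0.115), LPS library B (0.36, adjusted p = 0.0513) or IFN-β library A (0.22, adjusted p = 0.16), and over all 16 alternatives the adjusted p-value ran from 1.1e-04 to 0.622. The responses differed by -1.31 (SE 0.13, adjusted p = 1.5e-05).

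*Itgb3* (ENSMUSG00000020689, chr11:104608000-104670476, plus strand), which encodes the β3 subunit of the vitronectin and platelet fibrinogen receptors, was the member that fell under LPS. Its levels were low, at 2.84, 3.44 and 3.79 CPM (112, 153 and 168 counts) without stimulation, 1.45, 1.34 and 1.38 CPM (41, 46 and 45 counts) under LPS, and 2.65, 2.66 and 3.40 CPM (113, 100 and 123 counts) under IFN-β. The LPS libraries lay below all others, and IFN-β and unstimulated libraries overlapped. *Itgb3* fell by 1.27 on the log2 scale under LPS (SE 0.17, adjusted p = 6.1e-05 by edgeR). Under IFN-β the change was -0.21 (SE 0.16, adjusted p = 0.296), which with scaling by library size only became -0.53 (adjusted p = 0.0207; range over 16 alternatives 0.0207 to 0.633). The level was higher under IFN-β than under LPS by 1.06 (SE 0.17, adjusted p = 5.1e-04). β3 is also a platelet integrin. Of 7 megakaryocyte and platelet markers, 3 were tested, *Gp1bb* was at 0 in every library and *Gp9* had at most 3 counts. Their sums, mostly *Pf4* and *Ppbp*, were 94.3 to 124 CPM in unstimulated, 123 to 149 in LPS-activated and 81.9 to 109.9 in IFN-β-treated DCs, and the part of such cells in the *Itgb3* values was not tested.

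Between genes, levels were compared as CPM per kb of the union of annotated exons. *Itgb2* had the highest level in each group, at 583 ± 43.5 CPM per kb (SD, n = 3) in unstimulated, 554 ± 45.0 in LPS-activated and 616 ± 11.4 in IFN-β-treated DCs. *Itgb1* came next, at 108 ± 3.51, 224 ± 17.6 and 152 ± 7.53 CPM per kb. In unstimulated DCs the order went on with *Icam1* (45.6 CPM per kb), *Itga5* (38.2), *Itgal* (30.9), *Itgb7* (12.5), *Itga4* (10.5), *Itgav* (8.55), *Itgb3* (0.568) and *Vcam1* (0.283). Only the ranges of *Itgb7* and *Itga4*, and of *Itga4* and *Itgav*, overlapped between neighbours in that order.

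Under LPS *Itga5* moved next to *Itgb1*, at 203 ± 15.3 CPM per kb, and the ranges of both overlapped. *Icam1* (141 CPM per kb), *Itgal* (82.0), *Itga4* (33.1), *Itgav* (27.4), *Vcam1* (6.52), *Itgb7* (5.71) and *Itgb3* (0.236) followed. The neighbours *Itga4* and *Itgav*, and *Vcam1* and *Itgb7*, overlapped. Under IFN-β the order after *Itgb1* was *Icam1* (79.8 CPM per kb), *Itga5* (56.7), *Itgal* (28.1), *Itga4* (23.5), *Itgb7* (12.03), *Itgav* (11.1), *Vcam1* (1.24) and *Itgb3* (0.491), and only *Itgb7* and *Itgav* overlapped. *Vcam1* was thus the lowest of the 10 in unstimulated DCs and passed *Itgb3* under either stimulus. With the length of the longest transcript in place of all exons, *Icam1* went ahead of *Itgb1* and *Itga5* under LPS, with overlapping ranges. *Vcam1* then stood above *Itgb3* in unstimulated DCs as well, also with overlapping ranges. With that length *Itgb7* also came after *Itga4* and *Itgav* in unstimulated DCs and after *Itgav* under IFN-β, and its range overlapped theirs.

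**Figure D3:**
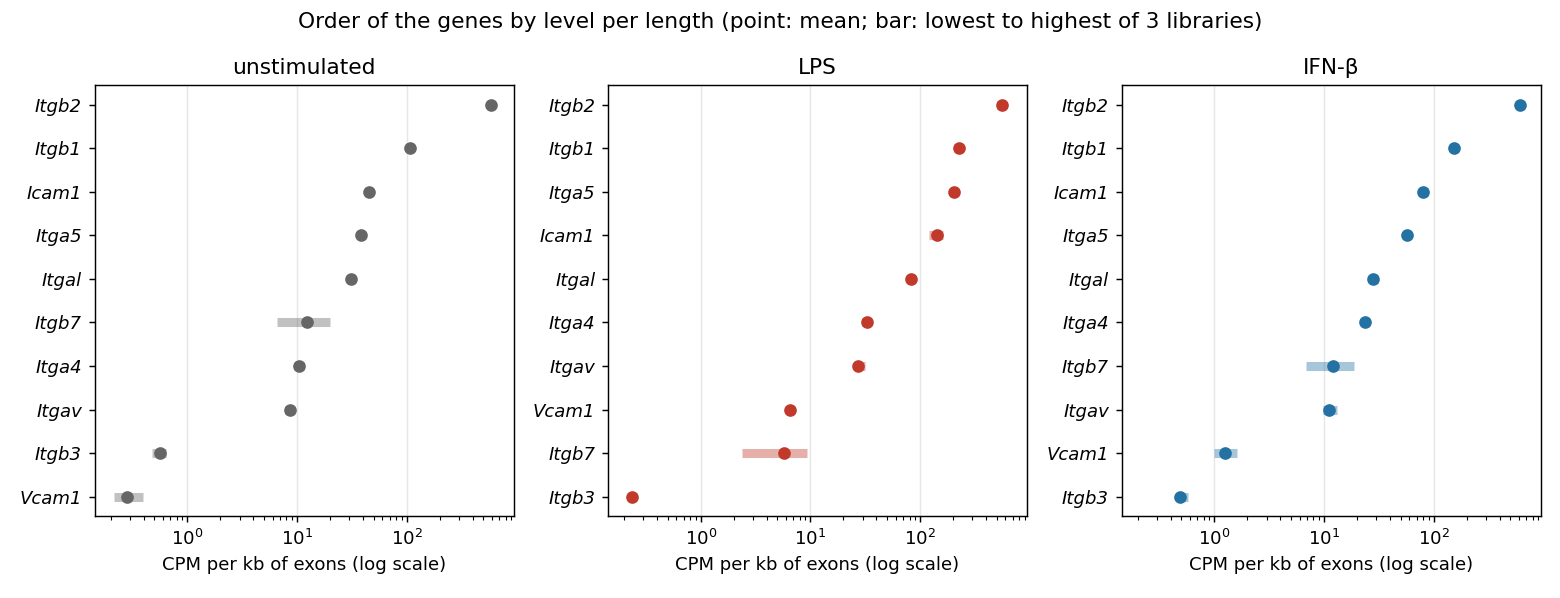
CPM per kb of annotated exons (log axis) of the 10 genes in each group, ordered by the mean, with a point at the mean and a bar from the lowest to the highest of 3 libraries. *Itgb2* is at the top of each panel, *Itga5* is higher in the order under LPS, and *Itgb7* has the longest bar in each panel.

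The ratio of an α to a β mRNA, per length and within a library, does not depend on the scaling between libraries. *Itgal* relative to *Itgb2* was 0.0533 ± 0.00649 (SD, n = 3) in unstimulated, 0.148 ± 0.00461 in LPS-activated and 0.0457 ± 0.00499 in IFN-β-treated DCs. The LPS libraries did not overlap with the others, and those of the other groups did. *Itga5* relative to *Itgb1* went from 0.353 ± 0.00554 to 0.909 ± 0.123 under LPS and was 0.374 ± 0.0154 under IFN-β, where every library was above the unstimulated ones. *Itga4* relative to *Itgb1* was 0.0970 ± 0.00849 without stimulation, 0.147 ± 0.00427 under LPS and 0.155 ± 0.00514 under IFN-β, and both stimulated groups lay above the unstimulated libraries while overlapping each other.

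*Itgav* relative to *Itgb1* was 0.0722 to 0.0837 without stimulation, 0.109 to 0.131 under LPS, above all other libraries, and 0.0631 to 0.0831 under IFN-β. *Itga4* relative to its other partner *Itgb7* ranged from 0.570 to 1.41 in unstimulated, 3.80 to 14.6 in LPS-activated and 1.36 to 3.41 in IFN-β-treated DCs. The LPS libraries were thus above all others for this pair. The unstimulated and IFN-β ranges overlapped, but within each letter the IFN-β library was the higher, at 1.36 against 0.570 (A), 2.07 against 1.01 (B) and 3.41 against 1.41 (C). *Itgav* relative to *Itgb3* ranged from 11.99 to 19.6, from 106 to 128 and from 16.9 to 29.3 in the same order. Here too the IFN-β library was above the unstimulated library of its letter, at 29.3 against 19.6 (A), 22.9 against 14.7 (B) and 16.9 against 11.99 (C). With 3 libraries against 3, an exact two-sided permutation test cannot give a p-value below 0.1 for such a ratio.

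**Figure D4:**
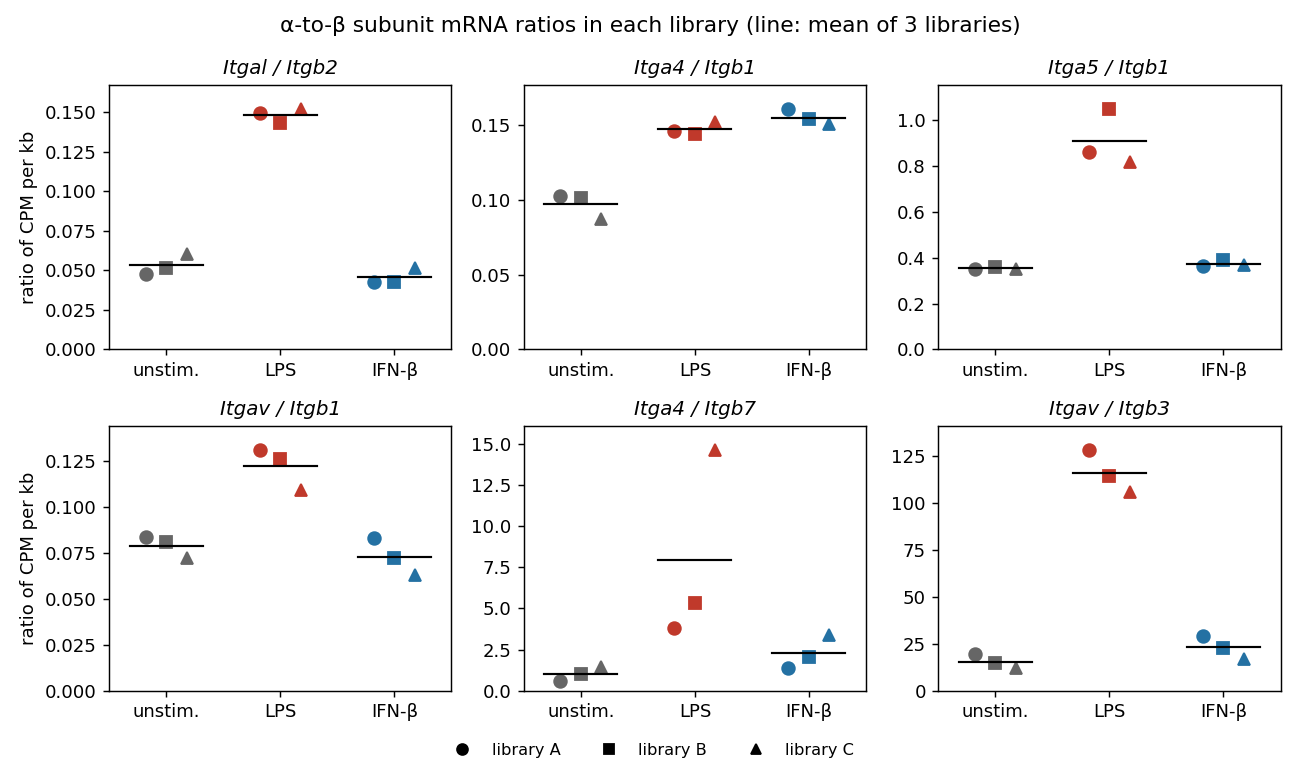
Ratio of α to β subunit mRNA (CPM per kb, linear axes from 0, a different scale in each panel) in every library, with a line at the mean of 3 libraries. The LPS libraries are above the unstimulated libraries in all 6 pairs, and IFN-β libraries lie with the LPS libraries for *Itga4* / *Itgb1* alone.

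The remaining integrin subunits moved both ways. Of 19 listed, 13 were tested. The counts of this and the following lists stand beside the shares of all tested genes called, 68.2% under LPS, 46.9% under IFN-β and 49.1% between the stimuli, or 73.5%, 56.3% and 58.0% with the letters as a block. Under LPS, *Itgb8*, *Itga9*, *Itga7*, *Itga2b* and *Itgax* were higher and *Itga6*, *Itgb5*, *Itga1*, *Itga10* and *Itgb2l* lower, with a median of -0.18 against -0.04 over all tested genes. *Itgax*, the CD11c gene of DCs, had a log2 fold change of 0.22 (adjusted p = 0.0415 by edgeR), which turned to -0.36 with scaling by library size only. *Itgb8*, which encodes a partner of αv that activates latent TGF-β, had 0.355 to 0.786 CPM (14 to 35 counts) without stimulation, 48.5 to 62.6 CPM under LPS and 1.24 to 1.89 CPM under IFN-β. It rose by 6.72 under LPS (SE 0.23, adjusted p = 4.7e-09) and by 1.53 under IFN-β (SE 0.27, adjusted p = 9.5e-04) on the log2 scale, and the responses differed by -5.18 (SE 0.20, adjusted p = 2.9e-08). *Itga6*, the laminin receptor subunit, fell by 1.42 under LPS (SE 0.09, adjusted p = 2.7e-07), from 25.2 to 26.7 CPM to 8.14 to 10.5 CPM. Its log2 fold change under IFN-β was 0.18 (adjusted p = 0.131), and it was higher under IFN-β than under LPS by 1.60 (SE 0.09, adjusted p = 3.7e-07).

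Under IFN-β, *Itgb8* and *Itga9* were higher and *Itga1*, *Itga10* and *Itgb5* lower, with a median of 0.14 against -0.02. *Itga9*, whose product binds VCAM-1 and tenascin-C, had 1 to 3 counts in each unstimulated library, 78 to 107 under LPS (adjusted p = 1.8e-07) and 44 to 69 under IFN-β (adjusted p = 7.5e-06). *Itga1*, a collagen receptor subunit, fell by 0.84 under LPS (SE 0.18, adjusted p = 0.0017) and by 1.12 under IFN-β (SE 0.18, adjusted p = 5.7e-04) on the log2 scale. Between the stimuli *Itga6*, *Itgae*, *Itgam* and *Itgb5* were higher under IFN-β and *Itgb8* and *Itga9* lower, with a median of -0.11 against 0.02. *Itgb2l* is a close relative of *Itgb2*, and reads shared between them could not be followed here. With scaling by library size only the split of this list under LPS was 3 higher and 9 lower. With upper-quartile factors it was 3 higher and 6 lower, and with DESeq2 it was 5 higher and 3 lower. The LPS calls of *Itga2b* (adjusted p = 0.0446 by edgeR) and *Itga10* (adjusted p = 0.041) were close to the threshold, and *Itga7* had 2 to 12 counts per unstimulated library. With the letters as a block, 11 of the 13 were called under LPS, where *Itgam* was added (-0.18, adjusted p = 0.00879), 7 under IFN-β, where *Itgae* (0.68, adjusted p = 0.0285) and *Itgam* (0.15, adjusted p = 0.0368) were added, and 8 between the stimuli.

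**Figure D5:**
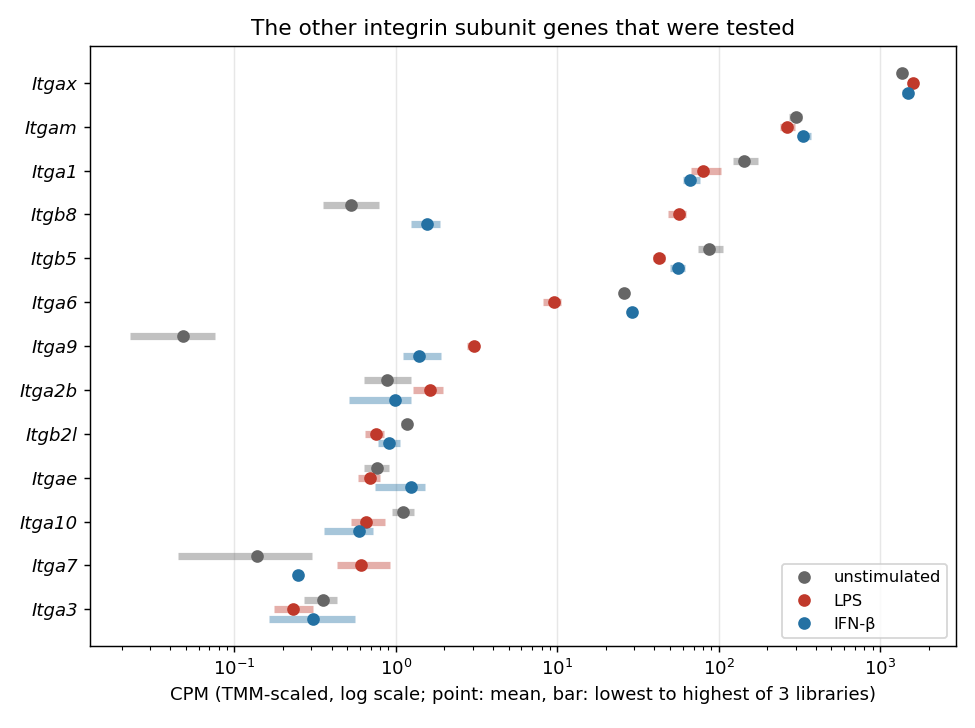
TMM-scaled CPM (log axis) of the 13 other integrin subunit genes that were tested, with a point at the mean and a bar from the lowest to the highest of 3 libraries in each group. *Itgb8* reaches 48.5 to 62.6 CPM under LPS, far above its levels in the other groups, and *Itga9* is low throughout but above its unstimulated level under either stimulus.

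The other ligands were read on the cell surface and in the matrix. Of 9 other cell-surface ligands, 7 were tested. LPS raised *Icam4*, *Icam5*, *F11r* and *Jam2* and lowered *Icam2* and *Cdh1*, with a median of 0.65 against -0.04 over all tested genes. The call of *Icam4* was close to the threshold (adjusted p = 0.0485 by edgeR). With upper-quartile factors or DESeq2 the split was 3 higher and 2 lower, and with scaling by library size only it was 3 and 3, with a median of 0.07. *Jam2*, a junctional adhesion molecule that binds α4β1, rose by 2.97 under LPS (SE 0.20, adjusted p = 3.6e-07 by edgeR) and by 2.23 under IFN-β (SE 0.21, adjusted p = 1.5e-05). *Cdh1*, the E-cadherin that binds αEβ7, fell by 2.10 under LPS (SE 0.14, adjusted p = 3.3e-07) and by 0.59 under IFN-β (SE 0.13, adjusted p = 0.00455). *Icam5* was lower under IFN-β than under LPS by a difference of -1.83 (adjusted p = 0.00104), from 50 to 72 counts per LPS library and 15 to 25 under IFN-β. Under IFN-β, *F11r* and *Jam2* were higher and *Cdh1* lower, with a median of 0.03, and with library size only the split was 2 and 2. Between the stimuli *Cdh1* was higher under IFN-β and *Icam5*, *F11r* and *Jam2* were lower, 4 genes that became 7 of 7 with the letters as a block. Under LPS the block also gave 7 of 7. *Madcam1*, the ligand of α4β7, did not pass the filter.

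Of 13 matrix and secreted ligands, 9 were tested, and 4 were higher and 2 lower under LPS (median 0.21), and 2 higher and 2 lower under IFN-β (median -0.02). The LPS split turned with scaling by library size only, to 2 higher and 4 lower (median -0.38), and *Spp1*, the osteopontin gene, went from 0.40 (adjusted p = 0.00143 by edgeR) to -0.18 (adjusted p = 0.0413). Under IFN-β that scaling gave 1 higher and 2 lower. With the letters as a block, *Mfge8*, whose product binds αv integrins, was added as lower under LPS (-0.54, adjusted p = 1.8e-06) and IFN-β (-0.31, adjusted p = 6.0e-04), and *Thbs1* as higher under IFN-β (0.30, adjusted p = 0.0111). *Fbn1*, which encodes fibrillin-1, rose by 3.93 under LPS (SE 0.16, adjusted p = 1.3e-08 by edgeR) and by 3.13 under IFN-β (SE 0.17, adjusted p = 8.8e-07). *Fn1*, which encodes fibronectin, the ligand of α5β1 and α4β1, fell by 0.96 under IFN-β (SE 0.12, adjusted p = 9.7e-05) and by 0.37 under LPS (SE 0.12, adjusted p = 0.0147), and the LPS call was lost without LPS library B (-0.33, adjusted p = 0.0598; range over 16 alternatives 5.8e-06 to 0.0598). *Emilin1*, an elastic fibre protein, fell by 0.55 under LPS (adjusted p = 0.00196) and by 0.91 under IFN-β (adjusted p = 1.7e-04). *Tnc*, which encodes tenascin-C, rose by 2.01 under LPS (SE 0.24, adjusted p = 2.0e-05), and its responses differed by -1.87 (adjusted p = 7.7e-05). None of the 9 was higher under IFN-β than under LPS by edgeR, and *Fn1*, *Thbs1*, *Tnc*, *Fbn1* and *Emilin1* were lower, with a median of -0.58 against 0.02. At an unadjusted p-value under 0.05 the number higher was also 0, as it was with DESeq2, while with scaling by library size only it was 1. With the letters as a block it was also 1, *Mfge8* (0.23, adjusted p = 0.00445). The number lower was 4 with upper-quartile factors and 3 with library size only. *Emilin1* differed by -0.36 between the stimuli (adjusted p = 0.0315 by edgeR), with overlapping libraries. That call was lost with both scalings, with the compared groups alone, and without LPS library C or IFN-β library A or B. Over 16 alternatives its adjusted p-value ran from 1.2e-04 to 0.613.

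Integrins are switched on from inside the cell by talin and kindlin, which bind the β tail after Rap1 and its effectors act. The list read here holds proteins of inside-out activation and proteins that bind the tail, whether they promote or limit activation. Of its 20 genes, 17 were tested. Under LPS 7 were higher and 6 lower (median 0.08), and under IFN-β 9 were higher and 2 lower (median 0.23). Between the stimuli 8 were higher under IFN-β and 5 lower (median 0.14). *Rap1b*, a Rap1 GTPase, rose by 1.67 under LPS (SE 0.12, adjusted p = 6.3e-07 by edgeR) and by 1.08 under IFN-β (SE 0.12, adjusted p = 5.5e-05). *Tln2*, a talin gene with a mean of 23.8 CPM in unstimulated DCs, fell by 1.91 (SE 0.14, adjusted p = 4.5e-07) and by 1.09 (SE 0.13, adjusted p = 7.6e-05). The talin gene *Tln1*, at 796 CPM, rose by 0.36 under LPS (adjusted p = 8.8e-04) and by 0.37 under IFN-β (adjusted p = 0.00165). With scaling by library size only its LPS value was -0.22 (adjusted p = 0.00984). *Fermt3*, a kindlin gene, fell by 0.90 under LPS (adjusted p = 4.2e-07), with -0.14 under IFN-β (adjusted p = 0.0969). *Rassf5*, which encodes the Rap1 effector RAPL, fell by 1.54 under LPS (SE 0.06, adjusted p = 1.2e-08) and was higher under IFN-β than under LPS by 1.35 (SE 0.06, adjusted p = 8.1e-08). *Apbb1ip*, which encodes the Rap1 effector RIAM, rose by 0.82 under LPS (SE 0.09, adjusted p = 1.2e-05) and was lower under IFN-β than under LPS by a difference of -1.05 (SE 0.09, adjusted p = 5.4e-06). Against unstimulated DCs its IFN-β value was -0.23 (adjusted p = 0.061), and the same size of fall passed with the letters as a block (-0.23, adjusted p = 0.00523; range over 16 alternatives 2.2e-04 to 0.191). The split of this list turned on the scaling. With library size only it was 4 higher and 12 lower under LPS and 2 higher and 8 lower under IFN-β, where upper-quartile factors gave 6 and 6. Between the stimuli, library size only gave 12 higher under IFN-β and 3 lower (median 0.42). The block gave 8 higher and 6 lower under LPS and 9 higher and 4 lower under IFN-β.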

How the data were processed

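The authors deposited raw counts per gene for 9 libraries of ribosome-depleted total RNA. They had trimmed the reads (Trim Galore 0.6.0 in the submitters' processing notes) and mapped and counted them with STAR (2.7.8a in those notes) on GRCm38 and a GENCODE annotation. No normalization or filter was applied to the deposited counts, and the strand setting is not given in the sources used here. Reads carry no molecular identifiers, so copies made by PCR amplification count as separate reads.

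The test followed the study's methods: edgeR 4.0.16 in R 4.3.3, TMM factors, filterByExpr (16260 of 55471 genes kept), 1 term per group over all 9 libraries, quasi-likelihood F-tests and Benjamini-Hochberg adjustment, with a threshold of 0.05. The fit was also run on simulated counts with a small set of genes changed under LPS, as many up as down. Such a run cannot speak to the scaling between groups. The standard error is the absolute log2 fold change divided by the square root of F. DESeq2 1.42.0, upper-quartile factors, library size without other scaling, no filter, a minimum of 10 counts in every library, the compared groups alone, the letters as a block and the omission of each library in turn were tried, 16 alternatives in all. After group means were subtracted, all 9 same-letter pairs of libraries correlated across genes by more than 0.1 (0.134 to 0.546), against -0.480 to 0.0622 for 18 pairs of different letters. The main test left the letters out, since no source says what they mark. Because of these correlations they were also fitted as a block. The blocked value is given where it changed the call of a member (for *Itgb7*, -1.15 under LPS) and as counts for the gene lists. Replicates differed by more than sampling noise.

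The members, the gene lists and the markers were chosen with earlier results of these data known. Named are the 10 members, the called gene with the largest rise and the largest fall per list and comparison, the 2 genes closest to each member, and defining markers, except for some genes that are not reported here. Genes named outside this rule were chosen after their values were seen. They were named because a count was 5 or fewer, as a partner, ligand or activator of a member, or as markers set against the library letters. Gene positions and exon lengths came from GENCODE M21, in which 55230 of the identifiers had an entry. Promoters came from RefSeq (GRCm38.p6), with 6 of the 10 members matched. A count of 3 was taken as the detection floor.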

Additional observations from a re-analysis of the deposited data

How the results depend on the processing

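Each of the 30 fold changes of the 10 members was recomputed under 16 alternatives. Of the 480 values, 457 kept their direction and their side of the threshold, and 21 of the 30 fold changes did so under every alternative. The counts of members called stayed within 1.5 times those reported. Of the 16 alternatives, scaling by library size only moved the largest number of these values, though most kept their call. It shifted all genes by the medians given with the counts. It turned *Itgb2* under IFN-β to -0.22, and among the named genes of the lists *Actn1* to -0.17, *Itga6* to -0.13 and *Tnc* to -0.16 under IFN-β, and *Itga1* between the stimuli to 0.00361. Of all genes called under LPS, 48.1% were higher, against 21.9% with that scaling. The shares were 50.3% and 22.3% under IFN-β, and 52.5% and 77.9% between the stimuli. Of the genes called in the 5 pathway lists, 61.1% against 36.8% were higher under LPS, 73.7% against 41.7% under IFN-β and 46.5% against 60.0% between the stimuli. Upper-quartile factors left 60.5% of the listed genes called under IFN-β higher. Leaving out each library in turn moved *Itgb7* under IFN-β between -0.52 and 0.49. With the replicate block the fold change of *Itgb7* was -1.15 under LPS and 1.12 between the stimuli, and the block changed no other call among the members. In the 5 pathway lists it removed no call and added those counted with the lists. At this depth *Itgb3* rested on 41 to 168 counts per library and *Itga9* on 1 to 3 counts per unstimulated library, and genes under the filter, such as *Madcam1*, gave no test. The letters of the libraries and the cultures behind them cannot be told apart.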

Other observations

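Genes that act downstream of bound integrins were read in the same fit. Of 23 genes listed for outside-in signalling and adhesion sites, 22 were tested, and 13 were higher and 6 lower under LPS, with a median log2 fold change of 0.63 against -0.04 over all tested genes, of which 68.2% were called. Under IFN-β, 13 were higher and 2 lower, with a median of 0.41 against -0.02 over all tested genes, of which 46.9% were called. Between the stimuli 7 were higher under IFN-β and 8 lower, with a median of -0.18 against 0.02, where 49.1% of all were called. With the library letters as a block, 21 of the 22 were called under LPS, 15 under IFN-β and 19 between the stimuli, against 73.5%, 56.3% and 58.0% of all tested genes. The list was not tested against other genes. *Fgr*, a Src-family kinase of myeloid cells, fell by 1.30 under LPS (SE 0.07, adjusted p = 4.1e-08 by edgeR) and by 0.28 under IFN-β (SE 0.06, adjusted p = 0.00446), and was higher under IFN-β than under LPS by 1.02 (adjusted p = 6.3e-07). *Parvg*, which encodes a parvin of leukocytes that binds the integrin-linked kinase, fell by 1.26 under LPS (SE 0.10, adjusted p = 9.7e-07) and by 0.33 under IFN-β (SE 0.10, adjusted p = 0.0174). The IFN-β call of *Parvg* was lost without unstimulated library C (-0.29, adjusted p = 0.0588) or IFN-β library A (-0.25, adjusted p = 0.0622). *Actn1*, which encodes an actin crosslinker of adhesion sites, rose by 1.32 under LPS (SE 0.08, adjusted p = 1.1e-07), had a value of 0.13 under IFN-β (adjusted p = 0.176), and differed between the stimuli by -1.19 (adjusted p = 7.0e-07). With scaling by library size only, the list had 9 higher and 8 lower under LPS and 8 higher and 5 lower under IFN-β, and its medians were 0.05 and 0.10.

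The pattern of each member over the 9 libraries was set against that of every other tested gene, by the root mean square difference in log2(CPM + 0.5) after each gene's own mean was subtracted. *Itgal* was closest to *Rassf4*, at 0.0383. The nearest gene to *Itga4* was *Xrn1*, the cytoplasmic exonuclease that degrades decapped mRNA, at 0.0415, followed by the decapping enzyme gene *Dcp2*, at 0.0593. For *Itga5* it was *Srgn*, the gene of the proteoglycan serglycin, at 0.0790, and for *Icam1* it was *Larp1*, an mRNA-binding protein gene, at 0.0678. *Itgb1* was nearest to *Acot9* (0.0414), *Itgb2* to *Tmem185b* (0.0215), *Itgav* to *Serpinb1b* (0.0789) and *Itgb3* to *Zfp141* (0.0814). *Vcam1* and *Itgb7* had no gene as near, with *Ptx3*, the gene of the secreted pattern receptor pentraxin-3, at 0.239 and *Crispld2* at 0.194. These are descriptions of likeness over 9 libraries, and the part owed to the differences between the 3 groups was not measured.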
